A study of Homo sapiens with 6 samples.

Results

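The 10 genes described here mark the melanocyte lineage and its pigment: the transcription factors MITF, SOX10 and PAX3, the pigment enzymes TYR, TYRP1 and DCT, the melanosome proteins MLANA and GPNMB, and the receptors EDNRB and MC1R. They were chosen by name as known lineage genes, with earlier results of these data known. Each was taken as the table row that carries only its symbol, 10 of 24494 genes with a symbol of their own. Each gene had 1 such row, and 0 further rows carried a member together with other symbols. RNA came from tumours that 1205Lu, a human metastatic melanoma line, formed under the skin of NSG mice over about 6 weeks. In 3 control tumours the cells carried a non-target short hairpin RNA (shRNA), and in 3 knockdown tumours an shRNA against Shp2 (SHP2, encoded by PTPN11), a phosphatase that relays receptor tyrosine kinase signals to the RAS-ERK pathway. The sequence of the hairpin, the use of 1 or more clones and the number of mice are not given in the labels, so the p-values below measure only the spread between these samples. NSG mice lack mature lymphocytes and natural killer cells but keep other host cells, and the labels do not say how much mouse RNA the extracts held.

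MITF is the master regulator of melanocyte identity: SOX10 and PAX3 act on its promoter, and MITF in turn binds E-box sequences in front of the pigment genes. Tyrosinase (TYR) carries out the first step of melanin synthesis, TYRP1 and DCT act on later intermediates, and MLANA (MART-1) is a melanosome protein used as a marker of melanoma. Melanoma cells occur in states with high or low MITF, and cells in the low state often carry AXL and other mesenchymal genes, which is background and not a result of these arrays.

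The upstream sequences are shown because MITF is known to act on several of these genes through the core of the M-box, a kind of E-box, which makes the pigment genes a readout of MITF. RefSeq promoters (GRCh38.p14) were at hand for 9 of the 10 genes, as 13 promoters, and were searched over the 250 bases before each start site for CATGTG and, on the other strand, CACATG. At least 1 promoter of 6 of the 9 genes held it, against 11.5% of all 27305 genes in the same table (9.42% of 35116 promoters). The palindromic E-box CACGTG, which shares no match with the other motif, was in 0 of the 13 promoters and in 6.34% of all. Capitals mark the matches in the stretches printed here, each read 5′ to 3′ on the strand of its gene.
TYR, chr11:89177759-89177874, plus strand: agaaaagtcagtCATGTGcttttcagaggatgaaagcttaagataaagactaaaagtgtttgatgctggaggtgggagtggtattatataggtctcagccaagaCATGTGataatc
TYRP1, chr9:12693229-12693384, plus strand: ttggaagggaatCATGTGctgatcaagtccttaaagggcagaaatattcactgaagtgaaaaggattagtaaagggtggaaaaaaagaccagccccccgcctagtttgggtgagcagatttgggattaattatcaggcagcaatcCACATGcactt
DCT, chr13:94479799-94479909, minus strand: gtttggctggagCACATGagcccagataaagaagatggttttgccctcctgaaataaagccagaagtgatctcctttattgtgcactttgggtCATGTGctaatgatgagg
GPNMB, chr7:23246640-23246730, plus strand: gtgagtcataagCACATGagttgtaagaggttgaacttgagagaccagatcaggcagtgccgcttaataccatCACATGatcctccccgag
MC1R, chr16:89918786-89918815, plus strand: tcacgcccccggCATGTGgccgccctcagt
EDNRB, chr13:77919816-77919845, minus strand: gctgccgggtgtCACATGgtgcgtgataac
The first matched base lay at -104 and -12 from the start site in TYR, at -144 and -11 in TYRP1, at -215 and -134 in DCT and at -123 and -62 in GPNMB. A match is a description of letters and not evidence that MITF bound there. In the windows of MITF, MLANA and PAX3 these letters did not occur.

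Values are the authors' GCRMA values, read as log2, and each is set against 3575 features that the table describes as negative controls, taken on its own array. What those features were designed to match is not stated in the table, and the brightest of them reached 9.34 to 10.3. The 95th percentile of these features ranged over 5.12 to 5.90 for control and 5.09 to 5.43 for knockdown arrays, with control 1 the highest of the 6. A gene was counted as above background where it exceeded that percentile in at least 3 of the 6 arrays, which 28.6% of all genes did. Levels of different genes are not compared, since each is read by probes of its own. As a check of the knockdown, PTPN11 was 8.47, 8.76 and 9.05 in the control tumours and 6.92, 6.34 and 6.88 in the knockdown tumours, 24.2% of control once the log2 means were made linear (log2 difference -2.05, SE 0.21, limma adjusted p of 0.034). That call was lost without any 1 of control 2, control 3 and knockdown 1, 2 and 3, where the limma adjusted p was 0.094 to 0.24. PTPN11 was the only 1 of the 12541 genes kept by a filter on low values that passed an adjusted p of 0.05 in limma (0.00797%). The median standard error of a log2 difference over those genes was 0.19.

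Of the 10 lineage genes, 2 were above background, SOX10 and PAX3. MC1R exceeded the negative control percentile in 2 arrays and the other 7 genes in 0 arrays. Over the 60 values of the 10 genes, 8 exceeded it, 4 of 30 in control and 4 of 30 in knockdown tumours. The 3 pigment enzymes, MITF, MLANA and GPNMB stood between percentiles 33.0 and 76.2 of the negative controls of each array. Fewer cells that make a transcript and less transcript per cell cannot be told apart in such tumour RNA.

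**Figure D1:**
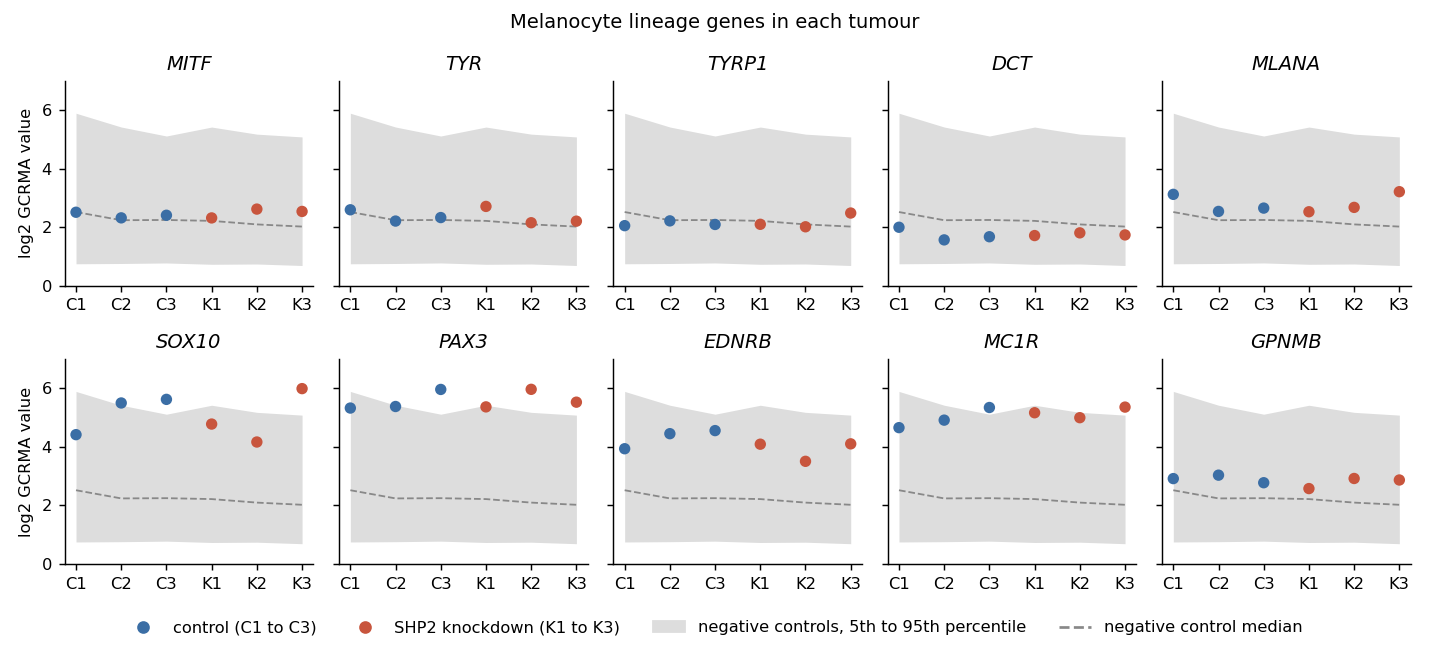
Log2 GCRMA value of each of the 10 genes (vertical axis) in control tumours (C1 to C3, blue) and knockdown tumours (K1 to K3, red), over a grey band from the 5th to the 95th percentile of that array's negative controls and a dashed line at their median. The values of MITF, TYR, TYRP1, DCT, MLANA and GPNMB lie inside the band near its median, and those of SOX10, PAX3 and MC1R near its upper edge.

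Among the transcription factors, MITF was read by feature 16942576, which the table assigns to transcript variant 2 (NM_198177). In order of sample number, its values were 2.51, 2.32 and 2.41 for control and 2.32, 2.62 and 2.54 for knockdown. The groups overlapped, and each value lay between percentiles 49.8 and 63.2 of the negative controls of its array. The log2 difference, knockdown minus control, was 0.08 (SE 0.15, 95% interval -0.26 to 0.42) in a fit to all genes without the low-value filter, which MITF did not pass. Whether the probes read the melanocyte isoform of MITF, which starts at its own promoter, is not given in the sources used here.

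SOX10, the neural crest factor that activates MITF, varied more between tumours than the other 9 genes. It was 4.42, 5.50 and 5.63 in the control tumours and 4.78, 4.17 and 6.00 in the knockdown tumours. The highest and the lowest of the 6 values were both in knockdown tumours, so that the groups overlapped in full. It exceeded the negative control percentile in control 2, control 3 and knockdown 3, at percentiles 95.4, 96.9 and 98.0, and stood at percentile 82.3 in control 1, 90.9 in knockdown 1 and 87.0 in knockdown 2. The group means were 5.18 ± 0.66 and 4.98 ± 0.93 (SD, n = 3 each). The log2 difference of -0.20 had an SE of 0.44 and a 95% interval of -1.19 to 0.79, with a limma adjusted p of 1.00 and an exact two-sided permutation p of 0.9, where the smallest that 3 against 3 allows is 0.1. The sign of that difference rested on single tumours: it was 0.02 without control 3, 0.20 without knockdown 2 and -0.71 without knockdown 3.

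PAX3, a paired-box factor of melanoblasts that acts with SOX10 on MITF, was read by a feature whose transcript spans chr2:223064610-223163471 on the minus strand of GRCh37. Its values were 5.33, 5.38 and 5.97 in the control tumours and 5.37, 5.97 and 5.53 in the knockdown tumours. Control 3, knockdown 2 and knockdown 3 exceeded the negative control percentile, and the other 3 tumours stood at percentiles 91.6 to 94.7 of the negative controls. The difference was 0.06 (SE 0.22, 95% interval -0.44 to 0.57, limma adjusted p of 1.00, exact permutation p of 0.7). Its sign turned to -0.05, -0.02 and -0.11 without control 1, control 2 and knockdown 2.

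**Figure D2:**
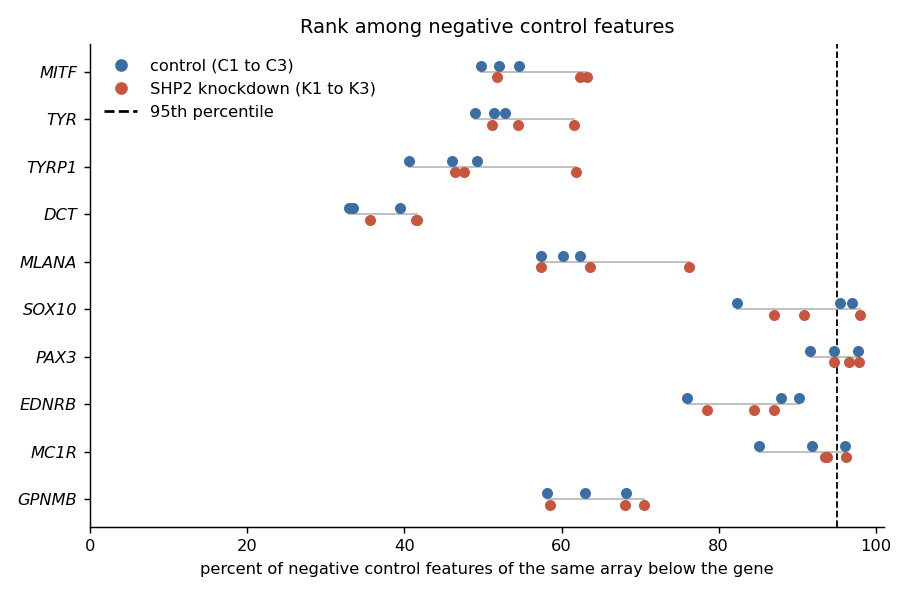
Percent of an array's negative controls that lie below each gene (horizontal axis), with 1 point for each control tumour (blue) and each knockdown tumour (red) and a dashed line at the 95th percentile. SOX10, PAX3 and MC1R have points past the line, in 3, 3 and 2 arrays, and the other 7 genes have none.

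The pigment enzymes lay between percentiles 33.0 and 61.9 of the negative controls in all 6 tumours. TYR was read by a feature whose transcript spans chr11:88910620-89028908 (GRCh37, plus strand). It was 2.60, 2.21 and 2.33 in control and 2.71, 2.15 and 2.21 in knockdown tumours. TYRP1 was 2.05, 2.22 and 2.09 against 2.10, 2.02 and 2.49. DCT was 2.00, 1.57 and 1.68 against 1.72, 1.81 and 1.74, below the negative control median of its array in each tumour. In each of the 3 genes the groups overlapped, and the log2 differences were -0.02 (95% interval -0.45 to 0.41) for TYR, 0.08 (-0.30 to 0.46) for TYRP1 and 0.01 (-0.36 to 0.37) for DCT. With values among those of the negative controls, as also for MITF, MLANA and GPNMB, such intervals do not bound a change in transcript.

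The same held for the melanosome proteins. MLANA was read by a feature whose transcript spans chr9:5890922-5908945 (GRCh37, plus strand). It was 3.12, 2.54 and 2.65 in control and 2.53, 2.68 and 3.22 in knockdown tumours. Its highest rank, percentile 76.2 of the negative controls, was in knockdown 3. GPNMB is a glycoprotein of melanosomes and lysosomes that macrophages also make. The transcript of its feature spans chr7:23286182-23314727 (GRCh37, plus strand), and its values were 2.92, 3.04 and 2.78 against 2.58, 2.92 and 2.87. The differences were 0.03 (95% interval -0.47 to 0.54) and -0.12 (-0.48 to 0.24), and both pairs of groups overlapped.

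Of the receptors, MC1R came nearest to the negative control limit and EDNRB had the most negative difference of the 10 genes. MC1R, the melanocortin receptor that raises cyclic AMP and thereby MITF, was 4.66, 4.92 and 5.35 in control and 5.17, 5.001 and 5.36 in knockdown tumours. Control 3 and knockdown 3 exceeded the negative control percentile, and control 1 held the lowest value. Its difference was 0.20 (SE 0.20, 95% interval -0.25 to 0.66, limma adjusted p of 1.00).

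EDNRB, the endothelin receptor that melanoblasts need to spread and survive, was 3.94, 4.45 and 4.56 in control and 4.09, 3.51 and 4.11 in knockdown tumours. The transcript of its feature spans chr13:78469616-78493903 (GRCh37, minus strand). Control 2 and control 3 lay above the 3 knockdown values, and control 1 lay among them. The feature ranked between percentiles 76.0 and 90.2 of the negative controls and exceeded the limit in 0 arrays. The difference was -0.41 (SE 0.23, 95% interval -0.92 to 0.09), with an unadjusted limma p of 0.098 and an adjusted p of 1.00. It stayed negative in the 6 fits that left out 1 tumour, from -0.60 without control 1 to -0.22 without knockdown 2.

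**Figure D3:**
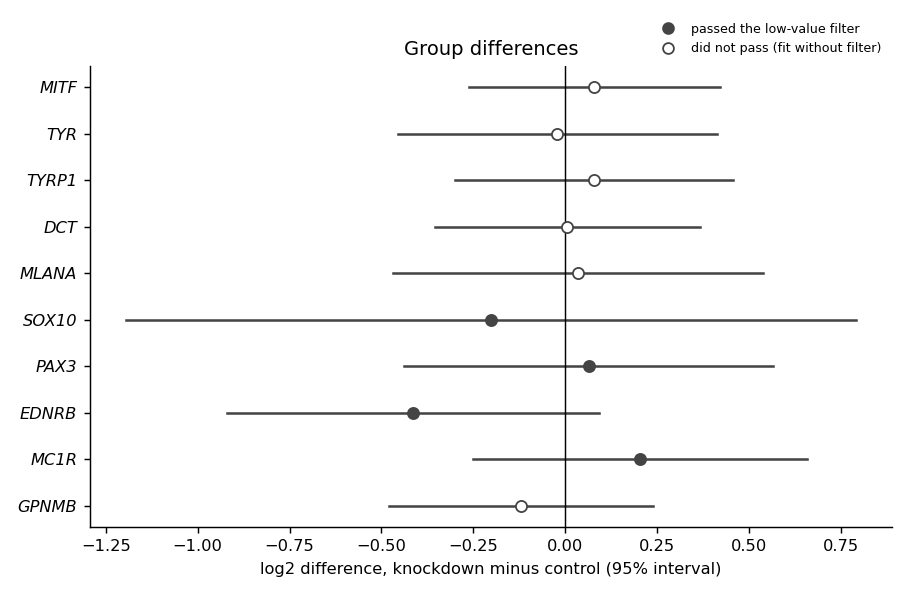
Log2 difference, knockdown minus control, of each gene (points) with its 95% interval (lines). Filled points are the 4 genes that passed the low-value filter and open points the 6 that did not, whose values come from the fit without it. The values of those 6 lie among the negative controls, so their intervals do not bound a change in transcript. All 10 intervals include 0, and that of SOX10, -1.19 to 0.79, is the widest.

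Over the whole list, 0 of the 4 genes that passed the filter (SOX10, PAX3, EDNRB and MC1R) were called by limma, and 0 of 10 had an unadjusted p under 0.05 in the fit without the filter, where the smallest was 0.096 and 767 of 24494 genes had such a p. The groups overlapped in all 10 genes. They did not overlap in 6.67% of the genes past the filter and 7.28% of all genes. For 10 genes, 0 lies near those shares and does not set the list apart. The 10 differences held 6 positive and 4 negative values with a median of 0.02, against a median of 0.03 over all 24494 genes. The negative control features themselves were lower in knockdown tumours by 0.22 in the mean of their medians (2.34 in control, 2.11 in knockdown). Set against that median, the differences of the list had a median of 0.24, that of SOX10 turned to 0.02, that of MITF was 0.30, and 0 of the 4 genes past the filter were called.

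The wider pigment programme was described by lists of named genes, members left out of each count. Of 14 further genes of the melanosome and of pigment synthesis, 7 passed the low-value filter, of which 0 were called in either direction. The 14 differences held 6 positive and 8 negative values. Of the 14 genes, 4 were above background. Those 4 are parts of melanosome transport or sorting that other cells also use: the motor MYO5A and its linker MLPH above the limit in 6 arrays, and the GTPases RAB27A and RAB32 in 5. MYO5A was 7.44, 7.57 and 7.90 in control and 7.50, 7.70 and 7.66 in knockdown tumours, a difference of -0.02 (SE 0.17). PMEL (the fibril protein of melanosomes), GPR143, OCA2, SLC45A2, SLC24A5 and TRPM1 exceeded the limit in 0 arrays. So did SLC24A4, TPCN2 and the GTPase RAB38, while ATP7A exceeded it in 1. Genes of transport thus stood on both sides of the limit, and this grouping was made after the values were seen. PMEL ranged from 2.63 to 3.97 over the 6 tumours.

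Complexes that build lysosome-related organelles, melanosomes among them, gave 11 of 17 genes above background. Of the 14 that passed the low-value filter, 0 were called in either direction. The small GTPase RAB7A was 9.06, 9.91 and 10.3 in control and 9.63, 10.3 and 10.4 in knockdown tumours, with a difference of 0.37 (SE 0.31). AP3D1, a subunit of the AP-3 adaptor, differed by 0.38 (SE 0.29), PLDN (BLOC1S6), a BLOC-1 subunit, by 0.24 (SE 0.21), and OSTM1, a lysosomal membrane protein, by 0.16 (SE 0.19).

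Among relatives and regulators of MITF, 9 of 15 genes were above background, and 0 of the 13 past the low-value filter were called. The neural crest factor SNAI2 was 8.62, 8.89 and 8.89 in control and 8.85, 9.33 and 8.99 in knockdown tumours, a difference of 0.26 (SE 0.18). GLI2, a Hedgehog effector reported to lower MITF in melanoma, was 6.55, 6.45 and 6.58 against 5.67, 6.62 and 6.21, with its lowest value in knockdown 1 and a difference of -0.36 (SE 0.23). BHLHE40 and ATF4, both known to repress MITF under stress, differed by -0.12 (SE 0.17) and -0.12 (SE 0.15). Of the MITF relatives, TFEB and TFEC exceeded the limit in 0 arrays and TFE3 in 5, at 5.76, 5.69 and 6.20 in control and 5.77, 6.35 and 6.14 in knockdown tumours (difference 0.20, SE 0.21).

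For receptors and ligands of melanocytes the count was 6 of 17 above background, with 0 called of the 10 past the low-value filter. ECE1, the protease that makes active endothelin, was 8.06, 8.44 and 8.50 in control and 8.25, 8.93 and 8.86 in knockdown tumours, a difference of 0.35 (SE 0.22). The alpha subunits GNAQ and GNA11, which couple endothelin receptors to phospholipase C, differed by 0.06 (SE 0.20) and 0.29 (SE 0.30), and ATRN, the accessory receptor for agouti, by -0.08 (SE 0.18). KIT and its ligand KITLG, the endothelins EDN1, EDN2 and EDN3, POMC and ASIP exceeded the limit in 0 arrays. ERBB3, a SOX10-dependent neuregulin receptor of the same list and singled out after its values were seen, was 5.30, 5.54 and 6.45 in control and 4.80, 4.29 and 5.21 in knockdown tumours. Its groups did not overlap, and its difference of -0.995 (95% interval -1.70 to -0.29) had a limma adjusted p of 1.00. The groups did not overlap in 3 of the 17 genes, ERBB3, GNAS (-0.37) and EDN3 (-0.39), against 7.28% of all genes.

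Known MITF targets outside pigment synthesis gave 8 of 21 genes above background, and 0 called of the 13 past the low-value filter. LGALS3 (galectin-3) was 5.93, 6.25 and 6.02 in control and 5.81, 5.40 and 5.86 in knockdown tumours. Its groups did not overlap, and its difference was -0.38 (SE 0.18, limma adjusted p of 1.00). The groups did not overlap in 3 of the 21 genes, LGALS3, ST3GAL6 (-0.43) and IRF4 (-0.24), against 7.28% of all genes. CDK4 differed by 0.20 (SE 0.18), DIAPH1 by 0.12 (SE 0.17) and HIF1A by 0.13 (SE 0.19). IRF4, CAPN3, BIRC7, APOE, ST3GAL6 and ACP5 were among the 12 genes of the list above the limit in 0 arrays.

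The label of the tumours as melanoma was set against markers. Of 11 measured melanoma and neural crest markers, SOX10 and MLANA among them, 6 were above background, and S100B, CSPG4, L1CAM, NES and VIM exceeded the limit in all 6 arrays, whereas PMEL, MLANA, MCAM, NGFR and S100A1 did so in 0. S100B, a defining melanoma marker, was 8.42, 8.93 and 9.30 in control and 8.53, 8.25 and 9.11 in knockdown tumours. Of 15 genes of dedifferentiated melanoma 13 were above background, AXL among them at 7.79, 8.27 and 8.50 in control and 8.01, 8.74 and 8.20 in knockdown tumours. AXL and SOX9 differed by 0.13 (SE 0.24) and 0.09 (SE 0.20), and 0 of the 15 were called. The difference between the shares of these lists was not tested, and the lists were chosen with earlier results of these data known.

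**Figure D4:**
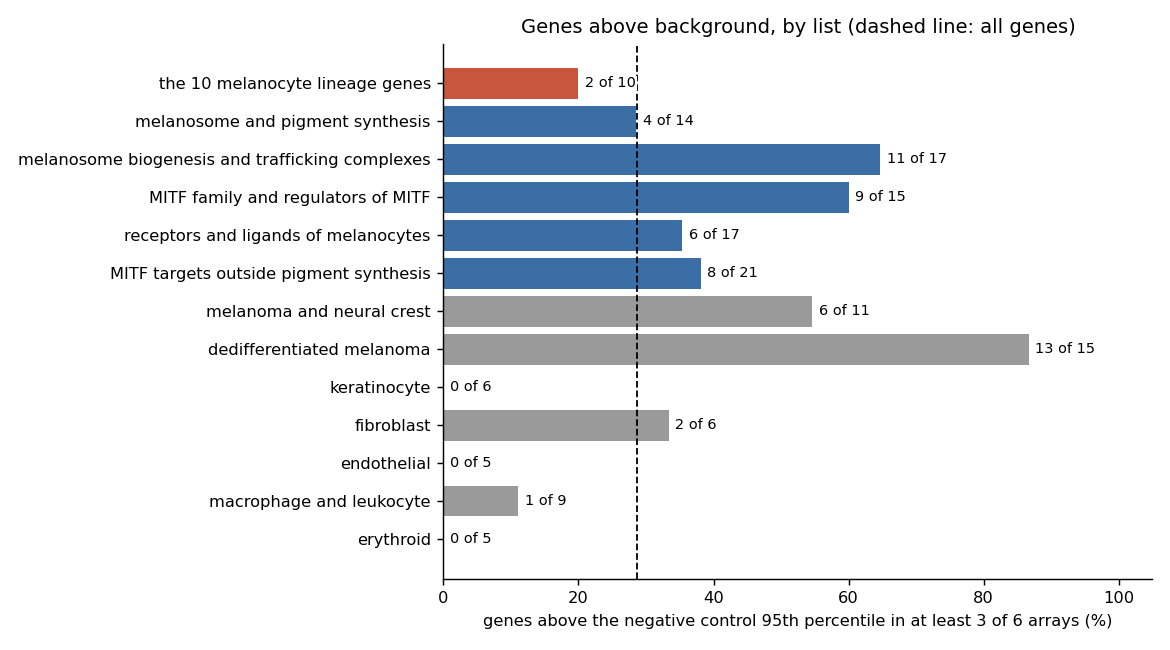
Share of the measured genes of each list (horizontal axis, percent) that exceeded the negative control 95th percentile in at least 3 of 6 arrays, with counts beside the bars and the 28.6% of all genes as a dashed line. The lineage genes stand at 2 of 10 (red), their pathway lists (blue) between 4 of 14 and 11 of 17, and dedifferentiated melanoma genes (grey) at 13 of 15. The lists were chosen with earlier results of these data known.

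Markers of other cells were examined in the same way. Host cells in these tumours are mouse cells, while the features carry human gene symbols. How they read mouse RNA is not given, so a low value does not show that host cells were few. Of 6 keratinocyte, 5 endothelial and 5 erythroid markers 0 were, and of 9 macrophage and leukocyte markers only CD68, at 6.72 to 8.36 over the 6 tumours. The mean level of the macrophage list was 3.04 to 3.13 in control and 3.05 to 3.43 in knockdown tumours, with PTPRC at 0.98 to 1.35. Of 6 fibroblast markers COL1A1 and PDGFRB were above the limit in 6 arrays and DCN, LUM, COL1A2 and FAP in 0. Among genes of Schwann cells, a neural crest lineage, PMP22 exceeded the limit in 6 arrays, ERBB3 in 3, NCAM1 in 2 and GFAP in 0. PMP22 was 7.24, 7.69 and 7.97 in control and 7.31, 7.60 and 7.61 in knockdown tumours, a difference of -0.13 (SE 0.21). The part of such cells in the values of SOX10 and EDNRB was not tested.

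Genes with the most similar pattern were sought for SOX10 and PAX3 among the 7005 other genes above background, each scaled to a mean of 0 and an SD of 1 over the 6 tumours. Nearest to SOX10 by root mean square distance were RPS16 (0.092), BNIP3L (0.148) and DUS1L (0.180). BNIP3L was 8.02, 8.59 and 8.74 in control and 8.16, 7.80 and 8.75 in knockdown tumours, so it shared the low values of control 1, knockdown 1 and knockdown 2. Nearest to PAX3 were SLC39A7 (0.059), PRIM2 (0.096) and ADCY1 (0.099). Scaling removes the size of a pattern. RPS16 ran only from 5.75 to 6.07 and DUS1L from 5.40 to 5.83, against 4.17 to 6.00 for SOX10. With 6 tumours and 7005 genes the distances are a description of these arrays.

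The table's own gene ontology terms, consulted after the values were seen, put 9 of the 10 genes under melanosome, pigmentation, melanin biosynthesis or melanocyte differentiation, all but PAX3. The melanosome term held 89 genes, of which 65 were above background, with TYR, TYRP1, DCT, MLANA and GPNMB, the 5 lineage genes it holds, each above the limit in 0 arrays. Melanocyte differentiation held 28 genes with 12 above background, pigmentation 17 with 6 and melanin biosynthesis 7 with 2. The shares were 73.0% for melanosome and 42.9%, 35.3% and 28.6% for these 3 terms in that order, against 28.6% of all genes. Of the 130 genes under any of the 4 terms, 107 passed the low-value filter and 0 were called.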

How the data were processed

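Per the labels' protocols, biotin-labelled RNA of 6 xenograft tumours was measured with standard Affymetrix procedures. The log2 values are those the authors deposited, made with GCRMA per the submitters' processing notes; the sources used here give neither the log base nor the array design, and the table quotes GRCh37 positions for some features. They range from 0.05 to 13.3 over 53617 rows. The series value table holds the same values (largest difference 0). Of the rows, 26419 carry 1 symbol, 270 several and 26928 none.

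Where a symbol had several rows, the one with the highest mean was used. Genes above a log2 value of 4 in at least 3 of 6 arrays were kept (12541), and the group difference was fitted in limma 3.58.1 under R 4.3.3 (lmFit, then eBayes, no covariate, two-sided, Benjamini-Hochberg adjustment at 0.05), with 4 residual and 5.83 prior degrees of freedom. Genes under the filter took differences and intervals from the fit without it, with no call. The test was checked on simulated data. The outcome of that check is not reported here, so it lends the calls on these arrays no weight. Precision is limited by 3 arrays per group. The exact permutation tests over 20 assignments used scipy 1.17.1.

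The members and lists were chosen with earlier results of these data known. A rule picked up to 4 genes of each pathway list: those called, then those above the negative control 95th percentile in most arrays, then by the smallest p. Other genes of the lists, among them those above the limit in 0 arrays, PMEL, TFE3, ERBB3, GNAS and the markers given with values, were named after their values were seen. Alternatives were 3 scalings, 2 filters, 2 ways to stand for a gene, 3 variance models, a block for the sample number, the series value table and leaving out each array; a fit without both arrays numbered 1 was added after seeing the data. The design text names no covariate, so the sample numbers were not treated as pairs in the main fit. The deviations of same-numbered arrays from their group means correlated at 0.42, -0.03 and 0.17, which does not settle whether the numbers mark pairs. Older symbols were matched through the RefSeq gene table. Some marker genes, and the count of their list, are not reported here.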

Additional observations from a re-analysis of the deposited data

How the results depend on the processing

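The count of lineage genes called, over those each filter kept, was 0 under all 19 alternatives, with limma or the ordinary test. Where no gene at all was called, as in the settings named next, it could not be other than 0. The ways to stand for a gene and the series value table left the values of the lineage genes unchanged. Such settings lend the count no weight. The count of all genes called, 1 in the main setting, was 0 without the low-value filter, after quantile normalization, with arrays centred on the negative control median or on the median of the genes kept, and with the ordinary test without moderation. It was 5 with the sample number as a replicate block (PTPN11, MIR644A, SNORD113-3, SNORD114-2 and SNX29P2) and 2 without both arrays numbered 1 (PTPN11 and SNORD113-3), names seen after their values. It ranged from 0 to 1 when 1 array was left out, 0 for each array other than control 1; the limma adjusted p of PTPN11 was then 0.094 to 0.24. The lineage genes above the negative control percentile numbered 2, with 3 at the 90th percentile or in at least 1 array and 0 at the 99th percentile or when all 6 arrays were required. Centring on the negative control median moved the list's median difference from 0.02 to 0.24 and turned that of SOX10 from -0.20 to 0.0223, by construction, since that median was 0.22 lower in knockdown tumours. With 1 array left out the SOX10 difference ran from -0.71 to 0.20 and that of PAX3 from -0.11 to 0.27. Over 18 alternatives EDNRB ran from -0.70 to -0.19 and MC1R from 0.04 to 0.43. Several of those 18 could not move a difference, so they lend its sign no weight. They included the way to stand for a gene, removal of the low-value filter, the ordinary test, the block and the series value table. EDNRB exceeded the background limit in 0 arrays, and neither gene was called. The cause of these differences was not tested. The replicate block changed no call of a lineage gene. Of the 10 genes, 7 never exceeded the background limit, so a change in them below it could not be measured here.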
